A study of Mus musculus with 6 samples.

Results

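Chd1 to Chd9 make up the chromodomain helicase DNA-binding (CHD) family of chromatin remodellers, and all 9 genes were found by symbol among the 24421 rows of the expression table. The table came from RNA-seq of islet β cells, sorted by flow cytometry with the stain DAPI from dispersed islets of tamoxifen-treated mice labelled as 7 weeks old, with 3 control and 3 βDKO samples. The gate used in the sort is not given in the sources used here. Both groups carried MIP-CreERT, a tamoxifen-activated Cre driven by the mouse insulin promoter, and 1 copy of R26LSL-tdTomato, a reporter that Cre switches on. Control mice were Brg1f/+ and Brm+/-, so they too had 1 Cre-sensitive allele of Brg1 (Smarca4) and 1 null allele of Brm (Smarca2). The βDKO mice were Brg1f/f and Brm-/-, and thus lacked the ATPases of the Swi/Snf remodelling complex in cells where Cre had acted. All mice were of mixed C57BL/6J and 129SV background. The labels do not say whether a sample is 1 animal or a pool, so p-values speak only of how far these samples spread, and part of that spread may be technical.

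CHD proteins use ATP to slide, evict or space nucleosomes, as Swi/Snf does, but their paired chromodomains set them apart from the Swi/Snf ATPases. They fall into subfamilies. Chd1 and Chd2 carry a DNA-binding domain and act on transcribed chromatin, where they help to space nucleosomes and place the histone variant H3.3. Chd3, Chd4 and Chd5 carry paired PHD fingers and serve as alternative motor subunits of the nucleosome remodelling and deacetylase (NuRD) complex, which joins remodelling to histone deacetylation. Chd6, Chd7, Chd8 and Chd9 form the remaining group, marked by BRK domains, and include Chd7, mutated in human CHARGE syndrome, and Chd8, a regulator of β-catenin target genes that is often mutated in human autism. In pancreatic islets, Chd4 is known to bind the β-cell transcription factor Pdx1, as Swi/Snf does.

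What the family shares is the ATPase motor. The stretch of coding sequence around its DEAH box, the ATP-hydrolysis motif that gives such enzymes their name, is shown for every member because it shows how alike the paralogs are and where they differ, which bears on whether reads could be shared between them. The 12 bases that encode the box are in capitals in each 90-base stretch, written 5′ to 3′ on the coding strand and taken from GENCODE M21 transcripts (GRCm38, the same assembly as mm10).
Chd1: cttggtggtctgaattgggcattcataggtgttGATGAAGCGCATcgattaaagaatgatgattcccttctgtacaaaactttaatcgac
Chd2: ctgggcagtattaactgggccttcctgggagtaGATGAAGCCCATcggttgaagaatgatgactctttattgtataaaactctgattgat
Chd3: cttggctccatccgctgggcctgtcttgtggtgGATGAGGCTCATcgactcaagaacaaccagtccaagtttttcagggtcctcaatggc
Chd4: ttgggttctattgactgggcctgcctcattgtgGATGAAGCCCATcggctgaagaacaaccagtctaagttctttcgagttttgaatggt
Chd5: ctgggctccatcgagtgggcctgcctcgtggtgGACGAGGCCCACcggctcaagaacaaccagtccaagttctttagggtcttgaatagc
Chd6: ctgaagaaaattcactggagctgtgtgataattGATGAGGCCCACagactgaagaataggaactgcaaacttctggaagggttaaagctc
Chd7: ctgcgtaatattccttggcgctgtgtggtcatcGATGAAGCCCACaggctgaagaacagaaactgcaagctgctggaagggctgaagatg
Chd8: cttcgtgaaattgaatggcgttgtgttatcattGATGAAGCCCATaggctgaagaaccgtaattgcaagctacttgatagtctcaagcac
Chd9: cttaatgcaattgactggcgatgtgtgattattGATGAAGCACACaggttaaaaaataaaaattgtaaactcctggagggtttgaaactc
The box lay within 1 exon in every member, at chromosome 17, 15738521 to 15738532 in exon 14 for Chd1 and chromosome 7, 73490619 to 73490630 in exon 16 for Chd2. In the NuRD group it was at chromosome 11, 69356962 to 69356973 in exon 16 for Chd3, chromosome 6, 125108761 to 125108772 in exon 17 for Chd4 and chromosome 4, 152370607 to 152370618 in exon 16 for Chd5. In the last group it was in exon 13 of Chd6 (chromosome 2, 161018080 to 161018091), Chd7 (chromosome 4, 8828343 to 8828354) and Chd8 (chromosome 14, 52219651 to 52219662) and in exon 14 of Chd9 (chromosome 8, 90994571 to 90994582). Over these 90 bases, the 10 pairs within a subfamily were identical at 67.8% to 83.3% of positions (median 73.9%), with Chd3 and Chd5 the closest at 75 of 90. The 26 pairs across subfamilies were identical at 45.6% to 67.8% (median 53.9%). No stretch of 50 bases in any annotated transcript of a CHD gene occurred in a transcript of another CHD gene. An exact match of that length could therefore belong to only 1 member. Shorter reads and alignments with mismatches were not examined. Other annotated genes held 18.0% of the 50-base stretches of Chd2 and 4.72% of those of Chd8, and 2.41% or less of those of each other member. For Chd2 the main partner was 1810026B05Rik, a same-strand gene that overlapped 18.4% of the exonic bases of Chd2. Gm26590, on the opposite strand, overlapped 5.77% of those of Chd8. Counts of these genes are therefore uncertain to that extent.

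The measure throughout is TPM, a read count divided by gene length and expressed as a part of 1000000 in each library. Recovered reads numbered 25388872 to 31282056 per library, and the members drew from 117 reads (Chd5 in βDKO 3) to 21672 reads (Chd3 in βDKO 1). The insulin transcripts Ins1 and Ins2 took 42.6% to 48.3% of TPM in controls and 6.37% to 8.93% in βDKO, so the median log2 fold change of the 10404 genes tested was 0.83 on TPM. Each result is therefore also given after rescaling the libraries with median-of-ratios size factors, where that median was 0.03. The words rose and fell are kept for genes that passed limma (adjusted p under 0.05) on both scales with 1 direction. Smarca4 was at 8.997, 13.5 and 12.4 TPM in controls and 10.6, 10.5 and 11.4 TPM in βDKO, and Smarca2 at 14.1, 27.5 and 26.6 against 25.0, 23.2 and 22.4 TPM. Neither was lower on TPM (limma adjusted p = 0.667 and 0.684) and both were lower after rescaling, by log2 values of −0.86 and −0.71 (adjusted p = 5.62e-04 and 0.0101). A value for a whole gene also counts exons outside a deletion and checks the genotype only in part.

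Control 1 and the pair of βDKO 1 and βDKO 2 stood apart. Control 1 was the lowest control for each of the 9 CHD genes on both scales, by 0.37 to 0.88 on the log2 scale below the other controls after rescaling. It was also low for long transcripts in general. Among the 2601 longest of the tested genes, which include all 8 tested CHD genes, its median log2 difference from the other controls was −0.19, against 0.20 among the 2601 shortest. The part of this in the CHD results was not tested, and values without control 1 are given where they change a call. The median log2 fold change between groups after rescaling differed little with length, at 0.02 for the shortest and 0.07 for the longest genes. Such medians do not speak for single genes, and the CHD genes were lower in control 1 than the median of the longest genes. Libraries βDKO 1 and βDKO 2 differed with an SD of 0.16 on the log2 scale, against 0.29 to 0.45 for other pairs within a group, and their average was tried as a single sample.

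In βDKO β cells the CHD genes parted in both directions. Chd3, Chd8 and Chd9 rose, Chd7 fell, and Chd4 and Chd5 were lower after rescaling, while Chd1, Chd2 and Chd6 passed, upwards, on TPM alone. Of the 8 members that reached 5 TPM in 3 or more libraries, 6 were higher on TPM, where 81.4% of all tested genes were higher, and 1 was lower, where 4.61% were. After rescaling 3 were higher, against 23.4% of all tested genes, and 2 were lower, against 21.1%. The same 3 genes were higher on both scales (23.4% of all genes) and Chd7 was lower on both (4.61%). The groups did not overlap on TPM for 6 tested members, all with βDKO above (83.2% of genes; 4.82% lay below), and after rescaling for 3 with βDKO above (31.0% of genes) and 2 with βDKO below (27.0%). With 8 members, shares of this size are near those of all genes. In size, Chd3 and Chd9 lay at percentiles 96.8 and 95.1 of all log2 fold changes after rescaling, and Chd7 at percentile 3.8.

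**Figure D1:**
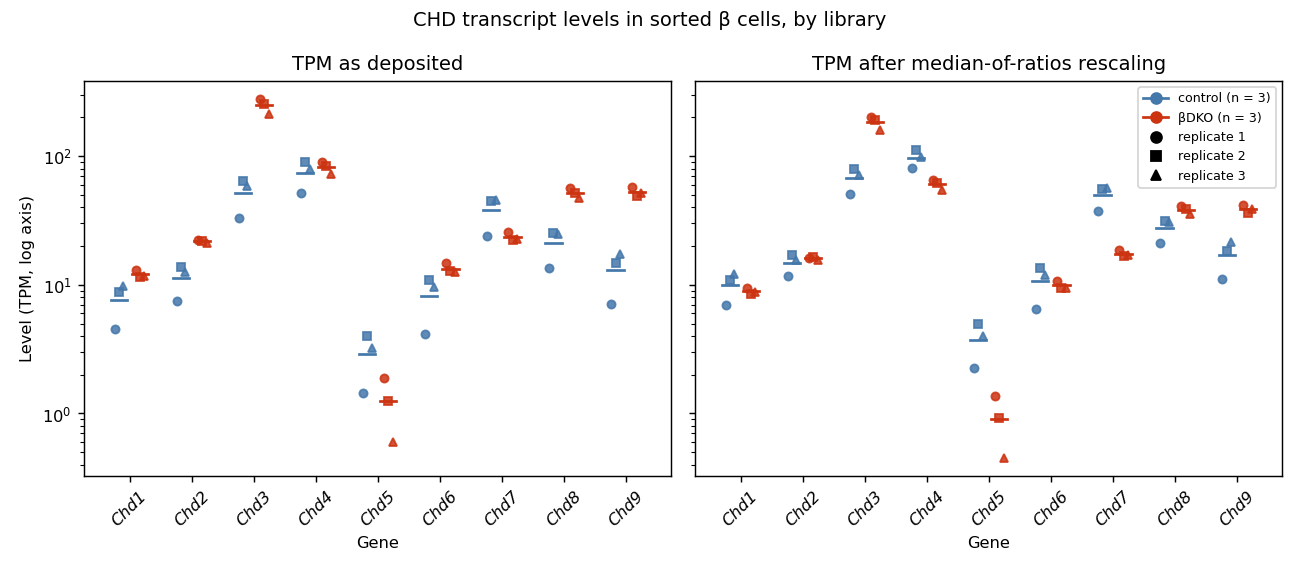
TPM of each CHD gene in each library on a log axis, as deposited (left) and after median-of-ratios rescaling (right); symbols are libraries, colours are groups and lines are group means (n = 3 each). Control 1 is the lowest control for every gene, Chd3 and Chd9 lie above all controls in every βDKO library on both scales, and Chd7 of βDKO lies below all controls after rescaling.

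Among the NuRD motors, Chd3 rose and Chd4 and Chd5 were lower after rescaling. Chd3 (chromosome 11, 69343273 to 69369406, mm10) had 32.8, 64.1 and 58.1 TPM in the controls, in the order 1 to 3 used throughout, and 278, 256 and 212 TPM in βDKO. Every βDKO library was far above the highest control. The rescaled values were 51.0, 79.3 and 71.8 in controls against 201, 191 and 159 in βDKO, again with no overlap. The fitted log2 change came to 2.29 on TPM (SE 0.24, limma adjusted p = 7.62e-05), a 4.82-fold rise in mean TPM. After rescaling it was 1.45 (SE 0.17, 95% interval 1.06 to 1.85, limma adjusted p = 3.71e-04), a 2.73-fold rise. Leaving out any 1 library kept the rescaled value between 1.27 and 1.58 (limma adjusted p at most 0.00186).

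Chd3os, a separate row, is by its name a transcript from the strand opposite Chd3; its position was not determined here. It was at 17.5, 16.3 and 13.8 TPM in controls and at 44.2, 42.9 and 32.2 TPM in βDKO. Limma called it higher on TPM (log2 1.27, SE 0.16, adjusted p = 2.16e-04) but not after rescaling (0.45, SE 0.18, adjusted p = 0.0830), where the groups overlapped. Whether the counting used strand is not given in the sources used here, so reads of any shared part cannot be assigned with certainty. In the GENCODE M21 transcripts, 0 of the 8630 stretches of 50 bases in Chd3 occurred in another gene, on either strand.

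Chd4 (chromosome 6, 125095981 to 125130591), the more abundant NuRD motor in controls, overlapped between the groups on TPM and was lower in βDKO after rescaling. It was at 51.9, 90.2 and 79.6 TPM in controls and at 90.4, 83.4 and 73.3 TPM in βDKO, and the groups overlapped. On TPM the fitted log2 change came to 0.19 (SE 0.20, 95% interval −0.27 to 0.64, limma adjusted p = 0.391), and it turned to −0.05 without control 1 (adjusted p = 0.700). After rescaling, Chd4 was at 96.9 ± 15.6 in controls and 60.8 ± 5.42 in βDKO (SD, n = 3 each), with 80.7, 112 and 98.4 in controls above 65.4, 62.2 and 54.9 in βDKO. There the fitted log2 change came to −0.65 (SE 0.13, limma adjusted p = 0.00522) and −0.78 to −0.55 without any 1 library.

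Chd5 (chromosome 4, 152338651 to 152390194), best known from neurons and from the testis and as a tumour suppressor, was the scarcest member. It stood at 1.45, 4.04 and 3.22 TPM in controls and at 1.88, 1.24 and 0.603 TPM in βDKO, and so passed no 5 TPM filter. These values rest on 457, 921 and 897 reads and on 379, 244 and 117 reads. On TPM control 1 lay among the βDKO values, whereas after rescaling 2.25, 4.998 and 3.98 in controls lay above 1.36, 0.926 and 0.452 in βDKO. In the limma fit over the 12541 genes that reached 1 TPM in 3 libraries, the log2 difference of Chd5 was −0.78 on TPM (SE 0.32, adjusted p = 0.0502, not past the threshold), where 6.04% of genes were lower. After rescaling it was lower by −1.29 on the log2 scale (SE 0.28, adjusted p = 0.00772), where 21.2% of genes were lower. Without control 1, Chd5 passed on TPM as well (−1.08, adjusted p = 0.00928), and likewise without βDKO 1 (−0.98, adjusted p = 0.0314).

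**Figure D2:**
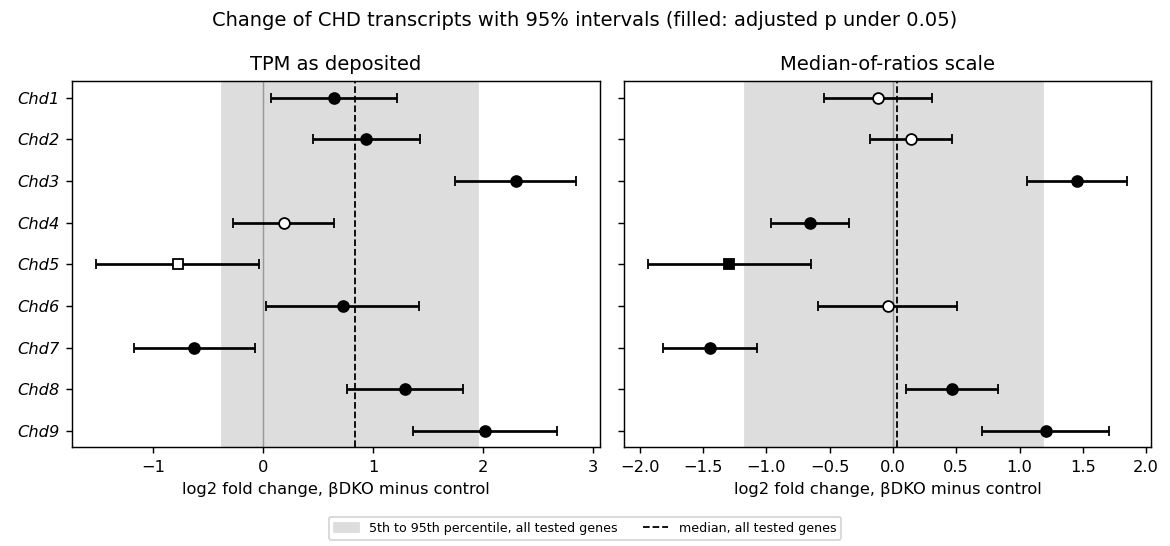
log2 fold change of each CHD gene (βDKO minus control) with its 95% interval from limma, on TPM (left) and after rescaling (right); filled symbols passed at adjusted p under 0.05 and the square is Chd5 from the 1 TPM fit. The grey band spans the 5th to 95th percentile of all tested genes and the dashed line is their median, at 0.83 on TPM and 0.03 after rescaling. Chd3 and Chd9 lie beyond the upper edge on both scales and Chd7 beyond the lower edge. The Chd5 square is drawn below the band too, but the band is from the 5 TPM fit that does not hold Chd5. In the 1 TPM fit the 5th percentile was −0.73 on TPM and −1.41 after rescaling. Against these, Chd5 at −0.78 and −1.29 lay beyond the edge on TPM only.

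In the group of Chd6 to Chd9, Chd9 (chromosome 8, 90828352 to 91054516), which has been studied as a partner of nuclear receptors, also rose. It was at 7.08, 14.8 and 17.4 TPM in controls and at 57.9, 48.6 and 52.2 TPM in βDKO. All βDKO values were far above the controls, also after rescaling, with 11.01, 18.3 and 21.5 against 41.9, 36.3 and 39.0. The fitted log2 change came to 2.02 on TPM (SE 0.29, limma adjusted p = 3.33e-04, 4.04-fold) and 1.21 after rescaling (SE 0.22, 95% interval 0.71 to 1.70, limma adjusted p = 0.00293, 2.31-fold). Without any 1 library the rescaled value stayed between 0.94 and 1.39 (limma adjusted p at most 0.0126).

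Chd8 (chromosome 14, 52198151 to 52257780) rose less. It was at 13.6, 25.4 and 25.0 TPM in controls and at 56.1, 51.8 and 47.4 TPM in βDKO, and limma gave 1.29 for its log2 change (SE 0.23, adjusted p = 0.00105). The rescaled values were 21.1, 31.5 and 30.8 against 40.6, 38.6 and 35.5, and the groups did not overlap. That change of 0.47 (SE 0.16, 95% interval 0.10 to 0.83, limma adjusted p = 0.0425) was near the threshold, and it was 0.29 without control 1 (adjusted p = 0.0327). It no longer passed without βDKO 1, βDKO 2 or βDKO 3 (adjusted p = 0.127, 0.106 and 0.0637), with βDKO 1 and βDKO 2 averaged (0.113), with no filter (0.0762), without limma's trend and robust settings (0.0515), without hormone transcripts (0.0995), or with size factors from the tested genes, a setting chosen after seeing the data (0.0502), and its direction was the same in each.

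Chd7 (chromosome 4, 8690406 to 8867659), a remodeller of enhancers with known roles in neural crest and inner ear development, went the other way. It was at 24.001, 44.7 and 46.0 TPM in controls and at 25.5, 22.3 and 22.7 TPM in βDKO. Control 1 lay within the βDKO range on TPM and the other controls lay well above it. After rescaling, 37.3, 55.4 and 56.8 in controls stood against 18.5, 16.7 and 16.95 in βDKO, with no overlap. The fitted log2 change came to −0.63 on TPM (SE 0.24, limma adjusted p = 0.0367) and −1.45 after rescaling (SE 0.16, 95% interval −1.82 to −1.07, limma adjusted p = 2.88e-04), a 2.87-fold fall in the rescaled mean. That TPM result missed the threshold without control 2, control 3 or any of the βDKO libraries (adjusted p = 0.0503 to 0.126) and reached −0.92 without control 1 (adjusted p = 1.21e-04). After rescaling it passed in each of these fits, between −1.64 and −1.35.

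Chd6 (chromosome 2, 160946978 to 161109075), linked to oxidative-stress responses in other cells, was near the threshold on TPM and far from it after rescaling. It was at 4.14, 10.9 and 9.66 TPM in controls and at 14.9, 12.7 and 12.6 TPM in βDKO, and its log2 change of 0.72 (SE 0.30) only just passed limma on TPM (adjusted p = 0.0497) and was 0.35 without control 1 (adjusted p = 0.0279). It did not pass there with another pseudocount, a looser filter or without any βDKO library. After rescaling the change was −0.04 (SE 0.24, 95% interval −0.59 to 0.51, limma adjusted p = 0.903). Without control 1 that value was −0.34 and passed (adjusted p = 0.0442).

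Chd1 and Chd2 were higher in βDKO on TPM alone. Chd1 (chromosome 17, 15704967 to 15772610) was at 4.51, 8.77 and 9.76 TPM in controls and at 12.997, 11.4 and 11.7 TPM in βDKO. Chd2 (chromosome 7, 73426638 to 73541830) was at 7.51, 13.7 and 12.5 TPM in controls and at 22.5, 22.0 and 20.997 TPM in βDKO. Neither gene's groups overlapped on TPM, where both passed limma (log2 0.64, SE 0.25, adjusted p = 0.0387 for Chd1 and 0.94, SE 0.21, adjusted p = 0.00331 for Chd2). After rescaling the groups overlapped. The changes were then −0.12 for Chd1 (95% interval −0.55 to 0.31, limma adjusted p = 0.630) and 0.14 for Chd2 (−0.18 to 0.46, adjusted p = 0.444). Without control 1 the Chd1 change on TPM was 0.34 (adjusted p = 0.0218). The Chd1 call on TPM was lost without any 1 of the βDKO libraries (adjusted p = 0.0671 to 0.0984), and without control 1 Chd1 was lower after rescaling by −0.33 (adjusted p = 0.0362). The row 1810026B05Rik, which overlaps Chd2, was at 9.34, 11.96 and 14.2 TPM in controls and at 25.3, 24.5 and 25.2 TPM in βDKO.

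Ratios between paralogs within a library do not depend on how libraries are scaled. The ratio of Chd3 to Chd4 was 0.632, 0.710 and 0.729 in the control libraries and 3.08, 3.07 and 2.90 in the βDKO libraries. Chd4 was thus the higher NuRD motor in every control and Chd3 in every βDKO library, a difference of 2.13 in mean log2 ratio, with an SD of 0.11 in controls and 0.05 in βDKO. The ratio of Chd5 to Chd3 dropped from 0.0442, 0.0630 and 0.0554 to 0.00675, 0.00484 and 0.00284.

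The order was turned in the last group too. The ratio of Chd7 to Chd8 was 1.77, 1.76 and 1.84 in controls and 0.455, 0.431 and 0.478 in βDKO, a difference in log2 ratio of −1.98. The ratio of Chd7 to Chd9 went from 3.39, 3.02 and 2.64 to 0.441, 0.459 and 0.434, a difference of −2.76. Chd7 was therefore above Chd8 and Chd9 in every control and below both in every βDKO library. Chd8 was above Chd9 in controls (ratio 1.43 to 1.92), and the pair was level in βDKO (0.909 to 1.07). The ratio of Chd1 to Chd2 moved least of the 10, from 0.600 to 0.779 in controls to 0.520 to 0.579 in βDKO, a difference of −0.28.

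All 10 ratios examined separated the groups without overlap; the share of other gene pairs that do so was not computed. Most of the pairs share a gene with another pair, so the 10 ratios are not independent of each other. By exact permutation (two-sided) each had p = 0.1, the smallest that 3 against 3 samples allow, and 0.1 after Benjamini-Hochberg adjustment over the 10 pairs. A ratio shows that members changed unequally and not which of them changed.

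**Figure D3:**
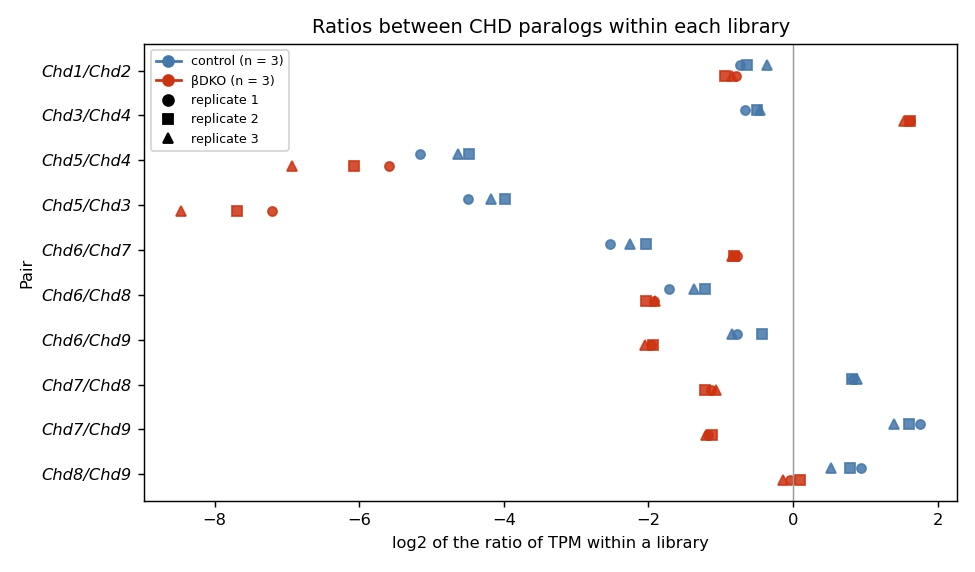
log2 ratio of TPM between CHD paralogs of the same subfamily in each library; symbols are libraries and colours are groups (n = 3 each), and 0 marks equal TPM. The groups do not overlap for any of the 10 pairs, and Chd3/Chd4, Chd7/Chd8 and Chd7/Chd9 lie on opposite sides of 0 in the groups.

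The make-up of the family's transcripts shifted accordingly. The 9 genes together held 147 to 277 TPM in controls and 454 to 560 TPM in βDKO, or 228 to 342 against 340 to 406 after rescaling, where the ranges met. Chd3 made up 22.6% ± 0.512 of that sum in controls and 48.9% ± 1.85 in βDKO, whereas Chd4 went from 32.8% ± 2.42 to 16.2% ± 0.125 (SD, n = 3 each). Chd7 went from 16.7% ± 0.783 to 4.64% ± 0.314 and Chd9 from 5.61% ± 0.950 to 10.5% ± 0.982. Chd8 held 9.33% ± 0.200 in controls and 10.2% ± 0.220 in βDKO. By subfamily, Chd3 to Chd5 held 56.6% ± 2.39 in controls and 65.4% ± 2.004 in βDKO, Chd6 to Chd9 held 35.1% ± 2.19 and 27.9% ± 1.60, and Chd1 with Chd2 held 8.27% ± 0.223 and 6.69% ± 0.454. The exact two-sided permutation p was 0.1 for each of the 12 shares, and shares of 1 sum are not independent of each other.

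**Figure D4:**
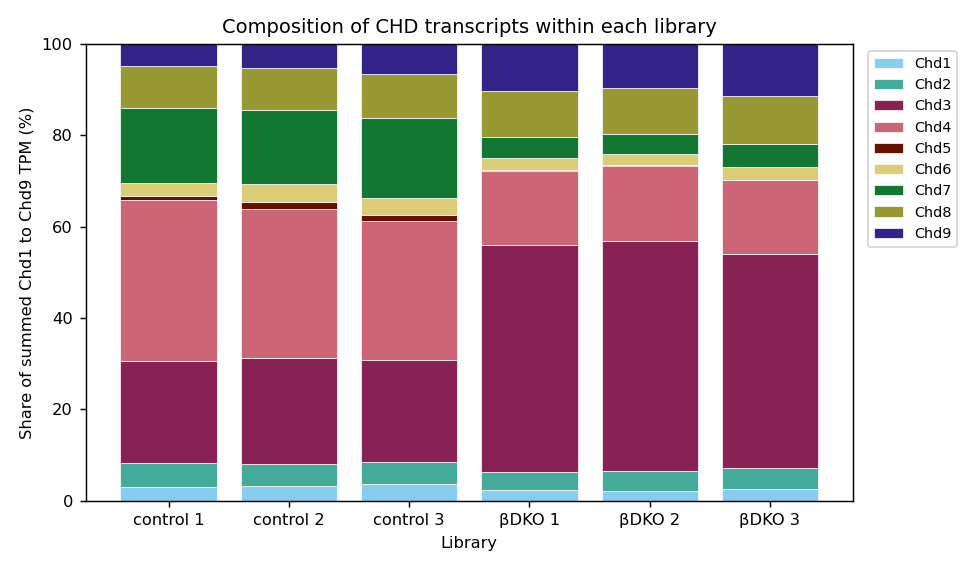
Percent of the summed TPM of Chd1 to Chd9 held by each gene in each library (stacked bars). Chd4 is the largest part in the 3 controls and Chd3 in the 3 βDKO libraries, where Chd7 is reduced.

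Levels of different genes can be compared only per length, and the lengths behind the deposited TPM were not alike for all members. Reads per TPM give the length used, up to a common factor. Set against the annotated transcript with the longest coding sequence, and taking the middle member as 1, that length was 0.983 to 1.003 for Chd1, Chd2, Chd3, Chd4, Chd8 and Chd9, 1.20 for Chd7, 1.99 for Chd5 and 1.99 for Chd6. The TPM of Chd5 and Chd6 thus stood nearly 2 times lower against the other members than reads per annotated base would place them. Fold changes of the mean TPM of 1 gene and differences of log2 ratios do not depend on this length. The limma fits on log2(TPM + 1) do, since the pseudocount and the filter act on TPM. A pseudocount of 0.5 acts on the log2 change as a length cut to 0.5 would. It gave Chd5 −0.95 on TPM and −1.58 after rescaling in the 1 TPM fit. With it, Chd6 did not pass on TPM (limma adjusted p = 0.0523). With reads per annotated base, an alternative chosen after seeing the data, Chd6 held 6.47% ± 1.06 of the family in controls and 5.08% ± 0.269 in βDKO, and the groups overlapped for Chd6 and Chd2, with exact permutation p = 0.2 for both. Chd5 then held 2.27% ± 0.422 and 0.455% ± 0.194 (SD, n = 3 each).

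On deposited TPM the order in controls was Chd4, Chd3, Chd7, Chd8, Chd9, Chd2, Chd6, Chd1 and Chd5. The control ranges of all neighbours in that order overlapped except those of Chd1 and Chd5. Within each control library, however, Chd4 was above Chd3, followed by Chd7, Chd8 and Chd9. Chd9 and Chd2 changed places between control libraries, as did Chd6 and Chd1. In βDKO the order was Chd3, Chd4, Chd9, Chd8, Chd7, Chd2, Chd6, Chd1 and Chd5, and the ranges of Chd9 and Chd8 overlapped, as did those of Chd7 and Chd2 and of Chd6 and Chd1. Within each βDKO library Chd7 was above Chd2 and Chd6 above Chd1, while Chd9 and Chd8 changed places. The genes also differ in structure. They span from 26134 bases (Chd3) to 226165 bases (Chd9), with coding lengths of 5130 bases (Chd1) to 8955 bases (Chd7) and 36 to 42 exons in the transcripts used here. The GC content of the coding sequence ran from 44.8% in Chd1 to 57.0% in Chd5. The members that rose were at 56.1% (Chd3), 49.4% (Chd8) and 46.6% (Chd9) and Chd7 at 52.9%.

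Promoter sequences of 300 bases, 250 before and 50 after the gene start, were given by RefSeq (GRCm38.p6) for Chd4, Chd5, Chd6, Chd8 and Chd9. Those of Chd8 and of the upstream start of Chd9 are shown because these members of the same subfamily rose together; matches to the motifs searched are in capitals.
Chd8: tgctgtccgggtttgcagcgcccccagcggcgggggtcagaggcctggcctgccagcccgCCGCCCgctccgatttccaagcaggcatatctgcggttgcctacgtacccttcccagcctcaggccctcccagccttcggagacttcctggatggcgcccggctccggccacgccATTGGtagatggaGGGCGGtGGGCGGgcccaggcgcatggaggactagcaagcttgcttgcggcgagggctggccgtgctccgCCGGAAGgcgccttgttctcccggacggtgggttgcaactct
Chd9: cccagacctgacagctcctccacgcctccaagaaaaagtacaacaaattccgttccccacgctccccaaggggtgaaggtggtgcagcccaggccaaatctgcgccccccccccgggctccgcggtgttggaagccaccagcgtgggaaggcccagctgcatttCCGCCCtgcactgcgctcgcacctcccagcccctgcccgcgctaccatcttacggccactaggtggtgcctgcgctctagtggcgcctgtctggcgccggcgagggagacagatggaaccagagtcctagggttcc
Chd8 is at chr14:52257711-52258010 on the minus strand and Chd9 at chr8:90828585-90828884 on the plus strand. The searches, on both strands, were for the GC box GGGCGG, the CCAAT box CCAAT, the TATA box TATAAA, the E-box CACGTG, the cyclic-AMP response element TGACGTCA, the ETS motif CCGGAAG, and by name for the NRF1 and YY1 motifs. The GC box was in the shown promoters of Chd8 and Chd9 and in 35.7% of all 32851 promoters. The CCAAT box was in that of Chd8 and in 37.4% of all promoters, and the ETS motif in that of Chd8 and in 8.86% of all. Chd8 had 26 CG dinucleotides and Chd9 had 19 in these windows, against a median of 7 over all promoters. A second annotated start of Chd9 had 1 and no GC box. The promoter of Chd6, of the same subfamily, held the GC and CCAAT boxes, no ETS motif and 20 CG dinucleotides. Chd6 did not pass after rescaling, so these features were not particular to the members that rose. The promoter of Chd5, which was lower after rescaling, also held the GC box and had 32 CG dinucleotides. It had no CCAAT box and no ETS motif. Chd4, also lower after rescaling, had the GC and CCAAT boxes and no ETS motif. No promoter was given for Chd3 or Chd7, and a link between these features and the changes was not tested.

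Partners of the CHD proteins were examined as lists. The 12 NuRD subunits other than the CHD motors were all tested. On TPM 11 were higher and none lower (81.4% and 4.61% of all genes), with a median log2 fold change of 0.59 against 0.83 for all tested genes. After rescaling 2 were higher and 7 lower (23.4% and 21.1% of all genes), with a median of −0.25 against 0.03. The 4 with the highest mean TPM were Mbd2, Rbbp7, Cdk2ap1 and Hdac2. Mbd2, which binds methylated DNA, was at 196 ± 19.4 TPM in controls and 269 ± 7.005 in βDKO, with log2 fold changes of 0.46 on TPM and −0.39 after rescaling (limma adjusted p = 0.00194 and 0.00799). Rbbp7, a histone chaperone, had 0.46 and −0.38, and Cdk2ap1 0.34 and −0.51, each passing on both scales in opposite directions. The deacetylase Hdac2 had 0.79 on TPM and −0.06 after rescaling (adjusted p = 0.662). The 2 that rose on both scales, named after their values were seen, were Mbd3, the alternative to Mbd2 (48.1 ± 5.52 against 101 ± 3.08 TPM, rescaled log2 0.22), and the scaffold subunit Mta3 (14.5 ± 0.947 against 33.4 ± 2.45 TPM, rescaled log2 0.34; SD, n = 3). No rescaled change in this list was above that of Mta3, against 1.45 for Chd3.

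Among 10 factors of transcription elongation known to work with Chd1, all 10 were higher on TPM, where 81.4% of all genes were. After rescaling 1 was higher and none lower, against 23.4% and 21.1% of all genes (median 0.10). Supt5, Paf1, Supt6 and Ssrp1, the most abundant, had rescaled log2 changes of −0.16, 0.20, 0.10 and −0.10 and did not pass limma there. The gene that did, named after its value was seen, was Leo1, a subunit of the Paf1 complex, which rose from 28.5 ± 4.75 to 101 ± 17.2 TPM (SD, n = 3; rescaled log2 0.96, adjusted p = 8.62e-04). Of 7 genes for histone H3.3 and its chaperones, all 7 were higher on TPM (81.4% of all genes), while after rescaling the 1 gene that passed was lower (21.1% of all genes), the H3.3 gene H3f3a (347 ± 9.93 against 437 ± 48.3 TPM, rescaled log2 −0.52, adjusted p = 0.0117). H3f3b, Ubn1 and Atrx did not pass after rescaling (−0.32, −0.13 and 0.30).

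Of 6 genes whose products are known to work with Chd8, 5 were higher and none lower on TPM (81.4% and 4.61% of all genes), and 1 was lower after rescaling (21.1%). That gene was Ctnnb1, which encodes β-catenin, at 115 ± 16.2 TPM in controls and 101 ± 5.93 in βDKO (SD, n = 3), with a log2 change of −0.17 on TPM (limma adjusted p = 0.204) and −1.02 after rescaling (adjusted p = 6.90e-05). The insulator factor Ctcf, Wdr5 and Rbbp5 had rescaled changes of −0.14, −0.24 and 0.13 and did not pass. The complex that joins Chd4 to Adnp and heterochromatin proteins was represented by Cbx3 and Cbx1, with rescaled changes of 0.24 and −0.22 that did not pass, and by Adnp, at 0.581 ± 0.184 and 1.24 ± 0.138 TPM, which was not tested.

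Other ATPases of the SNF2 superfamily were set beside the CHD genes. Of 16 listed, 12 were tested; on TPM 11 were higher with none lower (81.4% and 4.61% of all genes), whereas rescaled values gave 1 higher and 2 lower (23.4% and 21.1%; median 0.14). The 4 with the highest mean TPM were Srcap, Smarca5, Atrx and Smarca1. Smarca1, an ISWI ATPase, was the one that rose, from 3.91 ± 1.07 to 27.4 ± 2.06 TPM (SD, n = 3). Its rescaled log2 change of 1.80 (limma adjusted p = 3.52e-05) was above that of Chd3 at 1.45. The control mean of Smarca1 lay under 5 TPM, so this gene passed the filter through the βDKO libraries, where it was high. Smarca5, a relative of Smarca1, was lower after rescaling (−0.27, adjusted p = 0.0277). So was Chd1l, named after its value was seen, a CHD1-like helicase without chromodomains (11.9 ± 1.501 against 13.6 ± 1.52 TPM, rescaled −0.61, adjusted p = 0.00301). Srcap had 0.52 and did not pass (adjusted p = 0.0706).

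**Figure D5:**
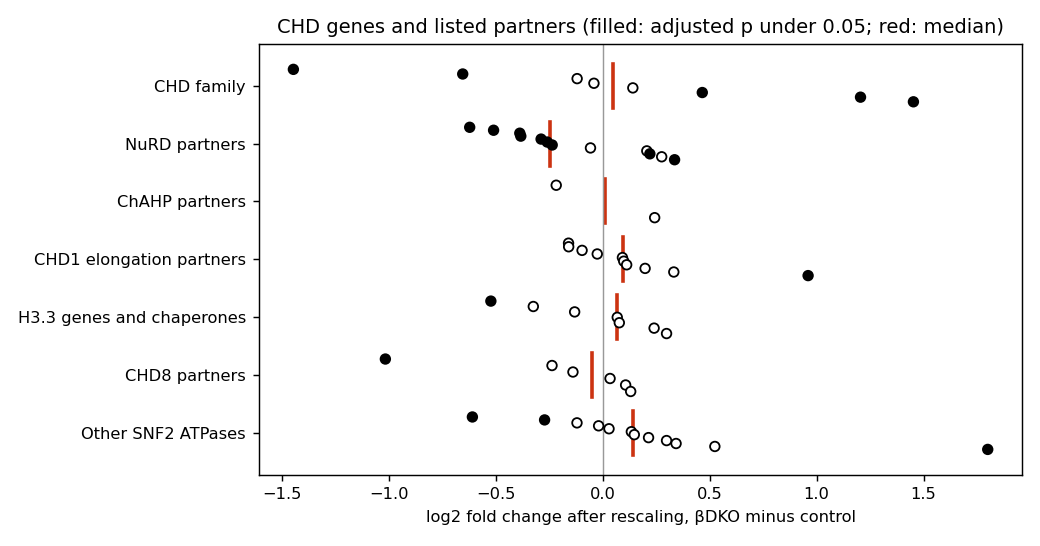
log2 fold change after rescaling (βDKO minus control) of each tested gene of the CHD family, of the partner lists and of other SNF2 ATPases; filled points passed limma at adjusted p under 0.05 and red bars are list medians. The CHD genes spread from −1.45 (Chd7) to 1.45 (Chd3), with a median of 0.05; single genes of the partner lists run from −1.02 (Ctnnb1) to 0.96 (Leo1), and list medians from −0.25 to 0.10.

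Some genes followed the members closely over the 6 libraries. Likeness was the root mean square difference of centred log2(TPM + 1) profiles, over 9852 tested genes with established names. The members used were those with the highest and the lowest rescaled change among the 8 in the 5 TPM fit, which leaves out Chd5. The nearest to Chd3, the highest, were the deubiquitinase Usp11 (difference 0.06), the small GTPase Rem2 (0.07) and the zinc finger gene Zscan18 (0.08). Usp11 went from 12.9 ± 4.15 to 69.0 ± 11.4 TPM and Rem2 from 12.8 ± 3.75 to 62.6 ± 8.27 TPM (SD, n = 3). The nearest to Chd7, the lowest of those 8, were Lifr, the leukaemia inhibitory factor receptor (difference 0.03), the syndecan Sdc3 (0.11) and Mical2, an actin regulator (0.11). Lifr went from 15.7 ± 5.16 to 9.52 ± 0.478 TPM, with control 1 low as for Chd7. These profiles rest on 6 libraries in 2 groups and include the offset of control 1.

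Several transcripts used as markers of other cell types moved with the groups. In bulk samples, a change in cells of a type, in RNA per cell or in expression of such genes by β cells cannot be told apart. The sorted cells carried β-cell transcripts in both groups: the 10 β-cell markers summed to 468571 to 535922 TPM in controls and 68240 to 96568 TPM in βDKO, with 8 lower and 2 higher on TPM and all 10 lower after rescaling. Of 8 α-cell markers, 5 were tested and 4 fell, with sums of 2390 to 5098 TPM in controls and 584 to 877 TPM in βDKO. Of 3 PP-cell and ε-cell markers, 2 were tested and both fell (1592 to 4019 against 608 to 891 TPM). The ε-cell marker Ghrl was under 1 TPM and was not tested. Of 5 δ-cell markers 4 were tested, 1 fell and 1 rose (2527 to 5010 against 1985 to 2558 TPM; Ghsr under 1 TPM). The 3 tested of 12 immune markers fell (122 to 216 against 8.75 to 14.5 TPM; Ptprc and Cd3e under 1 TPM). With sums this low in βDKO, the 3 cannot all have reached 5 TPM there. They thus passed the filter at least in part through the control libraries, where they were high, which favours a fall.

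Of 12 acinar markers 8 were tested and none passed (15.2 to 600 TPM in controls and 17.2 to 149 TPM in βDKO; Amy2a5 and Rbpjl under 1 TPM). Of 7 ductal markers 2 were tested and 1 fell (263 to 370 against 214 to 223 TPM; Sox9 under 1 TPM). Of 9 endothelial markers 1 was tested and rose (5.85 to 12.3 against 23.98 to 28.8 TPM), with Pecam1, Cdh5 and Kdr among 7 under 1 TPM, and all 8 stellate or fibroblast markers were under 1 TPM, Pdgfra at 0. Of 10 Schwann-cell or neuronal markers 5 were tested, 3 rose and 1 fell, with sums of 141 to 204 TPM in controls and 562 to 595 TPM in βDKO, Sox10, S100b and Rbfox3 under 1 TPM and Gfap at 0. Named after their values were seen, Snap25, Map2 and Elavl4 were the 3 that rose and Tubb3 the 1 that fell. Of all tested genes, 23.4% rose and 4.61% fell. The part of these shifts in the CHD results was not tested.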

How the data were processed

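RNA from sorted islet β cells of 3 control and 3 βDKO samples was measured by RNA-seq. The authors deposited TPM values per gene, per the file headers, in a table of 24421 rows, of which 6614 were 0 in every library and 27 had names turned into dates. FastQC, Trimmomatic, HISAT2, HTSeq, DESeq2 and mm10 are listed in the submitters' processing notes; no source used here gives versions or settings. The TPM steps gave whole reads for 16625 of 16625 rows checked (within 0.01 read), with 25388872 to 31282056 reads per library.

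The 10404 genes that reached 5 TPM in 3 or more libraries (14017 did not) were tested with limma 3.58.1 (R 4.3.3; trend and robust) on log2(TPM + 1), two-sided, with Benjamini-Hochberg adjustment over all of them. Fold changes on this scale understate those of low genes. The same test was run on TPM divided by median-of-ratios size factors. Chd5 was tested in the same fit with a filter of 1 TPM in 3 libraries (12541 genes). Ratios and shares were tested by exact permutation in SciPy 1.17.1 (Python 3.11.15). The fits were tested on simulated data. Alternatives were other pseudocounts (0.1 and 0.5), filters and scalings, limma-voom on recovered reads, the replicate block and leaving out each library.

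Named were the 9 members, the targeted and insulin genes, the up to 4 tested genes of each partner list with the highest mean TPM, and the 3 genes nearest in profile to the members with the highest and lowest rescaled change among the 8 tested at 5 TPM. Rows that overlap a member by position or name and low cell-type markers are also named, and other genes outside this rule are marked in the text. Members and lists were chosen with earlier results of these data known.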

Additional observations from a re-analysis of the deposited data

How the results depend on the processing

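On TPM, 8469 genes were higher and 480 lower in βDKO; a filter of 1 TPM gave 757 lower and no filter 1098. Rescaling without hormone transcripts gave 2159 higher and 2337 lower, and 2 members higher and 2 lower. Members lower on TPM numbered 0 with no filter or with βDKO 1 and 2 averaged and 0 to 1 without any 1 library; after rescaling 2 to 4 were lower without any 1 library. Chd5 on TPM ranged from −1.08 to −0.56 without any 1 library and was −1.49 without hormone transcripts (limma adjusted p = 0.0103). Directions turned on TPM without hormone transcripts for Chd1 (−0.15), Chd4 (−0.69) and Chd6 (−0.071), and for Chd4 without control 1 (−0.046; range without any 1 library to 0.35). After rescaling they turned for Chd1 without control 3 (range −0.33 to 0.017), Chd2 without control 1 (−0.0033 to 0.24) and Chd6 without control 2 or control 3 (−0.34 to 0.15), none of which passed in the full data. The cause was not tested. Chd3 and Chd9 passed in every alternative on both scales, as Chd4 and Chd7 did after rescaling; Chd5 did so after rescaling in those run for it, which leave out limma-voom. The replicate numbers did not pair the samples (correlations of same-numbered samples −0.06, −0.03 and 0.21); the replicate block called 8358 genes up and 480 down on TPM, 2228 and 2026 after rescaling, and no member's call changed. Depth limits Chd5 most, at 117 to 921 reads.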
